A study of Homo sapiens with 6 samples.

Results

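Polycomb repressive complexes 1 and 2 (PRC1 and PRC2) were examined in HEK293 cells treated with an siRNA against BAHD1. The members were 39 named genes, and a probe set belonged to one of them when the platform annotation gave that gene's symbol and no other. This gave 113 probe sets for 35 of the 39 genes, out of 54613 probe sets and 19775 singly annotated genes on the array. RNF2, CBX8 and BAP1 had no probe set annotated to them here and were not analysed. BMI1 was read only jointly with a readthrough gene, and is described below outside the counts. HEK293 is an established line derived from human embryonic kidney. The cells received either the siRNA against BAHD1 or a control siRNA, and RNA was collected 72 h after transfection. Each group held 3 biological replicates, with 1 array per replicate, so that the 6 arrays differed by the siRNA alone as far as the labels state. One siRNA treatment is named for BAHD1, without its sequence, so effects of that siRNA on other transcripts were not examined.

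Polycomb proteins keep developmental genes silent through histone marks. PRC2 methylates histone H3 at lysine 27 through EZH1 or EZH2, held in a core with EED, SUZ12 and RBBP4 or RBBP7. PRC1 ubiquitinates histone H2A through RING1 or RNF2 paired with a PCGF protein. CBX proteins of canonical PRC1 bind the methylated lysine, whereas RYBP or YAF2 replaces them in variant PRC1. BAHD1 is a silencing factor whose bromo-adjacent homology domain is itself known to bind the H3 lysine 27 trimethyl mark, which raises the question of whether the transcripts of the complexes that write and read it differ when BAHD1 is depleted.

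Values are array signals on a linear scale, set by the depositors to a common trimmed mean of 100 on each array. Signals of different probe sets are not comparable with each other, so only differences between groups are given. BAHD1 itself, the siRNA target, had signals of 62.9, 55.7 and 46.7 in control cells and 36.6, 46.8 and 41.2 in BAHD1 siRNA cells. The groups overlapped narrowly, with a control value of 46.7 below a BAHD1 siRNA value of 46.8. The log2 fold change of -0.40 with an SE of 0.19 did not pass (limma, adjusted p = 0.251). The exact two-sided permutation p was 0.2, where 3 arrays against 3 cannot go below 0.1. The depletion was therefore not established by this probe set, and directions below are between arrays as labelled. The poly-A spike-in RNAs, added before labelling and read by 24 probe sets, were at a median of 1.49 times the control signal in BAHD1 siRNA arrays, and their part in the results was not tested. Of 7 genes taken as markers of the line 6 were measured, with KRT18 at mean signals of 519 and 512 in control and BAHD1 siRNA cells and LHX1 below the filter. NEFL and NEFM rose by 0.37 and 0.58 on the log2 scale, and VIM fell by 0.32, in the intensity-trend fit used for all genes below. Their adjusted p-values were 0.0457, 0.0473 and 0.0318 in that fit, and 0.230, 0.196 and 0.196 in the fit with one prior described below. The other NEFL probe sets were at 0.19 and 0.75. PAX2 was at 0.65 without overlap and did not pass (adjusted p = 0.119, intensity-trend fit), and KRT8 was at 0.09. Of 8 markers of other cell types 2 passed the filter, 5 lay below it and 1 had no probe set of its own. Those measured were the red cell gene HBB, with mean signals of 19.5 and 24.8 in control and BAHD1 siRNA cells on its brightest probe set, and the endothelial gene PECAM1, with 17.2 and 17.5. Neither passed (adjusted p = 0.621 and 0.978, intensity-trend fit). The blood cell marker PTPRC had mean signals of at most 5.70 on its 5 probe sets. In bulk RNA, fewer cells of a type and less RNA per cell cannot be told apart.

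Polycomb transcripts were mostly not past the threshold. Of the 35 members, represented by the brightest probe set of each, 2 rose and 1 fell in BAHD1 siRNA cells. PHF1, an accessory subunit of PRC2, rose by 0.72 ± 0.11 on the log2 scale (± SE, n = 3 in each group), and PHC2, a polyhomeotic subunit of canonical PRC1, rose by 0.45 ± 0.10. RBBP4, a histone-binding subunit of the PRC2 core and of other chromatin complexes, fell by 0.31 ± 0.07 on its brightest probe set. A further probe set of BCOR, a corepressor of variant PRC1, rose by 0.35 ± 0.08, although the brightest probe set of that gene was at 0.06. These statements use a limma fit in which the prior variance follows the mean signal, called the intensity-trend fit here, with Benjamini-Hochberg adjustment over all 27458 probe sets kept and a threshold of 0.05.

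These counts were near the background. The intensity-trend fit called 5.52% of the 12529 measured genes, 3.06% as higher and 2.46% as lower, and 3 of 35 members, which is 8.57%. Without control replicate 1 or 2, or without BAHD1 siRNA replicate 2 or 3, 1 member passed, and it was PHF1 each time. Over single probe sets it called 4.45% of all those kept, and 4 of the 95 kept for members, which is 4.21%. A limma fit with one prior variance for all probe sets called 0 of 27458, with 4843 (17.6%) at an unadjusted p under 0.05, and 0 member probe sets, with 17 of the 95 at an unadjusted p under 0.05. The smallest adjusted p of a member there was 0.132, for PHF1. Groups did not overlap in 28.2% of all genes and in 10 of 35 members, 6 of them higher (16% of all genes) and 4 lower (12.2% of all genes). The members' median log2 fold change was -0.01, beside 0.02 for all genes, and 16 members were higher and 19 lower, where 54.4% of all genes were higher. Centring the array medians moved the median of all genes by -0.14 and the members' with it, to -0.15. On the brightest probe sets the intervals were narrow. Of the 32 members that did not pass, 31 had a 95% confidence interval (from the intensity-trend fit) within a 1.5-fold change in either direction. The exception was PCGF3, whose interval reached 0.60. Other kept probe sets of some of these genes had intervals beyond a 1.5-fold change, such as 0.20 to 0.78 for PCGF1 and -0.73 to -0.17 for CBX6.

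**Figure D1:**
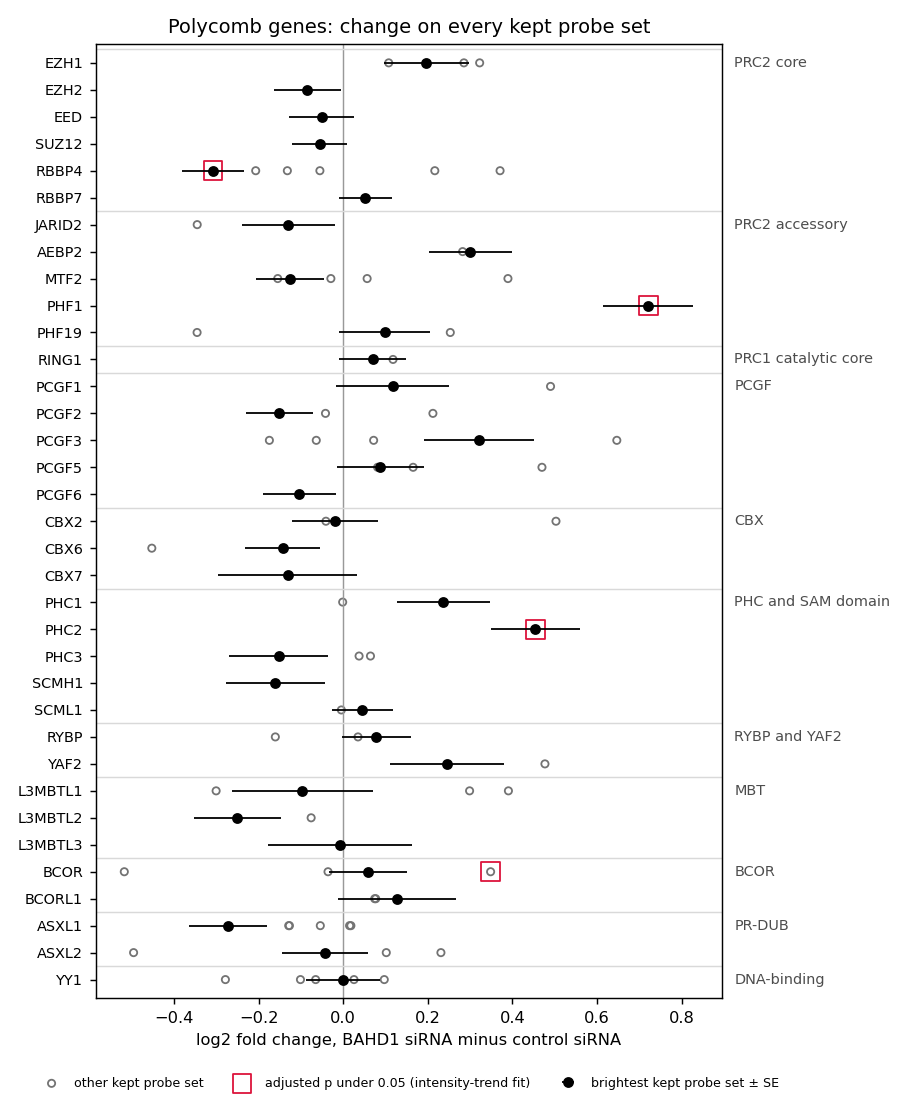
Log2 fold change (BAHD1 siRNA minus control siRNA, 3 arrays each) on every kept probe set of the 35 measured Polycomb genes, by role. Filled points are the brightest probe set of a gene with its SE, open circles its other kept probe sets, and red squares mark an adjusted p under 0.05. PHF1 at 0.72 lies farthest to the right, the brightest probe sets of the 32 genes that did not pass lie within 0.32 of 0, and 15 of the 35 genes have probe sets on both sides of 0.

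**Figure D2:**
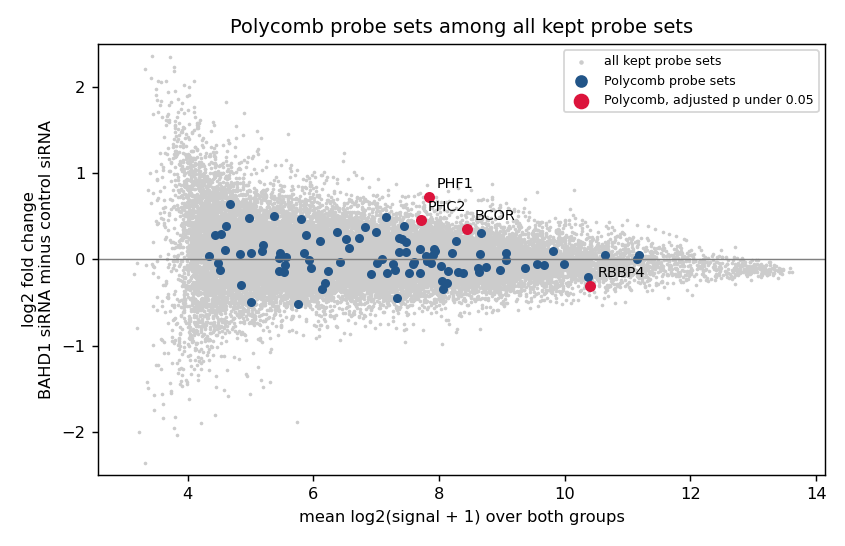
Log2 fold change against the mean log2 signal of both groups for all 27458 kept probe sets (grey), with the 95 Polycomb probe sets in blue and the 4 past the threshold in red. The Polycomb probe sets lie within the cloud of all probe sets, whose spread is widest at low signal.

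PHF1 had the largest change among the brightest probe sets of the 35 members. It encodes a Polycomb-like protein that joins PRC2 and reads a histone mark of transcribed genes through its Tudor domain. Its signals were 193, 187.2 and 155.5 in control cells and 267.6, 300.3 and 315.1 in BAHD1 siRNA cells. All BAHD1 siRNA values thus lay above all control values, and the means differed by 1.65-fold. The adjusted p was 0.0062 in the intensity-trend fit and 0.132 in the fit with one prior, and the exact two-sided permutation p was 0.1, the smallest possible. With any single array left out the change stayed between 0.62 and 0.79 with an adjusted p of 0.0071 to 0.0316. A second PHF1 probe set, with signals of 4.2 to 27.9, was below the filter and was not tested.

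PHC2 encodes a polyhomeotic protein, whose SAM domain can link PRC1 complexes into chains. Its signals were 175, 161.6 and 199.4 in control cells and 228.9, 242.3 and 262.9 in BAHD1 siRNA cells. The groups did not overlap, with a 1.37-fold difference of means and an adjusted p of 0.0318 in the intensity-trend fit (0.168 in the fit with one prior). The call ended without control replicate 1 or 2 (adjusted p = 0.0908 and 0.108, intensity-trend fit) and without BAHD1 siRNA replicate 2 or 3 (adjusted p = 0.0951 and 0.124). It also ended with the array medians centred, at 0.32 (adjusted p = 0.149), and with no filter (adjusted p = 0.0747).

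**Figure D3:**
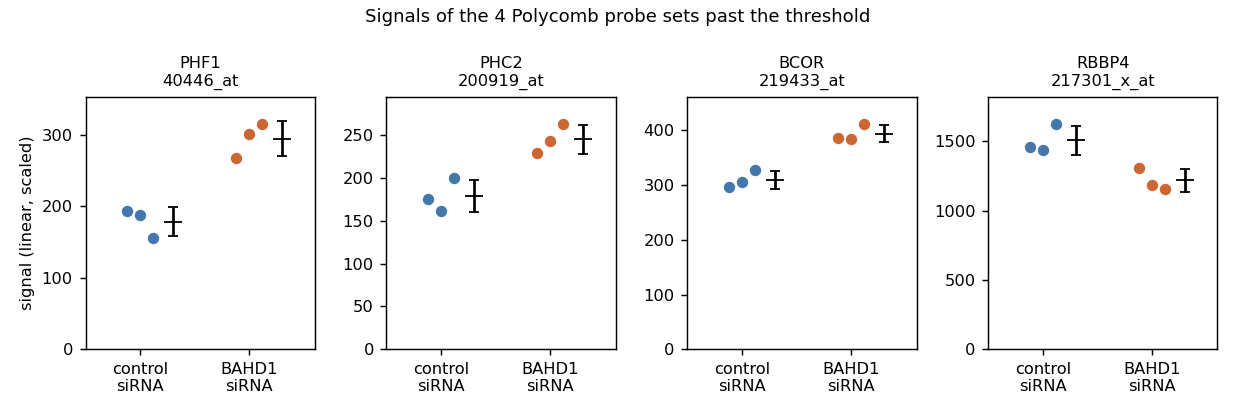
Linear signals of the 4 Polycomb probe sets past the threshold, with each array as a point, control siRNA in blue and BAHD1 siRNA in orange, and the mean ± SD of 3 arrays beside them. In each panel the groups do not overlap: PHF1, PHC2 and BCOR are higher and RBBP4 lower in BAHD1 siRNA cells.

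The promoters of the 2 genes that rose are shown because Polycomb silencing in mammals is known to act at CpG-rich promoters. Each sequence runs from 250 bases before to 50 bases after an annotated start in RefSeq (assembly GRCh38.p14), on the gene's strand, with CpG dinucleotides in capitals. The table holds 2 starts for PHC2, and which of them gives the measured transcript is not known.
PHF1, chr6:33410764-33411063, plus strand: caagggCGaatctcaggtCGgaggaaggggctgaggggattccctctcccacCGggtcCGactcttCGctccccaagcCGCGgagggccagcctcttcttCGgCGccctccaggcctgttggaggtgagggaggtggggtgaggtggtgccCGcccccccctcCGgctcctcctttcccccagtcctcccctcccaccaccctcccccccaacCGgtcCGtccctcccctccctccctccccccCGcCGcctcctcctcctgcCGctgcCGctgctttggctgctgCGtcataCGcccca
PHC2, chr1:33349850-33350149, minus strand: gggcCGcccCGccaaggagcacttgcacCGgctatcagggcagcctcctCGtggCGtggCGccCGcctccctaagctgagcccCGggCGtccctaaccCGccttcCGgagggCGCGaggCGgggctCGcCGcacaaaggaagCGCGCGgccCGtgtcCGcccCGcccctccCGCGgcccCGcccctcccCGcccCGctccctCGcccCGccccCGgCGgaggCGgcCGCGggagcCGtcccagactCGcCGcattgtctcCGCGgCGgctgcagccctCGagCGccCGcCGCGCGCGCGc
PHC2, chr1:33431046-33431345, minus strand: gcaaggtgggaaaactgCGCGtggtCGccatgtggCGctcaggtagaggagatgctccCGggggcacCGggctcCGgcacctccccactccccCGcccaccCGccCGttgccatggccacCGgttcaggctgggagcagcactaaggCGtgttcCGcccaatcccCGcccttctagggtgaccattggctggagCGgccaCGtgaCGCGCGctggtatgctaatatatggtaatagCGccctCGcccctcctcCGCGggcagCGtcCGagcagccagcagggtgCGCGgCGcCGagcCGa
The PHF1 window holds 19 CpG, and those of PHC2 hold 48 and 30. Across the 52 windows of the 34 measured members found in the table, the count ran from 2 to 55 with a median of 31, beside a median of 14 over all 35116 windows, which include those of noncoding genes. The letters CCATNTT, a core of the motif of the member YY1, were searched on both strands. They were absent from these 3 windows and present in 12 of the 52, which is 23.1%, against 15.6% of all windows of this length. Those 12 windows belong to 10 genes, and windows of the same gene can overlap, so a site can be counted more than once.

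Among the catalytic and scaffold subunits of PRC2 the 2 methyltransferase genes pointed in different directions, and neither passed. EZH1, the form prominent in resting cells, had signals of 164.2, 168.2 and 163 in control cells and 181.4, 178.7 and 209.6 in BAHD1 siRNA cells. All BAHD1 siRNA values lay above the controls, at a log2 fold change of 0.20 ± 0.10 (SE; adjusted p = 0.292 in the intensity-trend fit). Its 4 kept probe sets ran from 0.11 to 0.32, and none passed. EZH2, the form prominent in dividing cells, had signals of 412.9, 452.9 and 453.9 against 403.1, 398.4 and 443.1. Its groups overlapped, and the log2 fold change was -0.08, with a 95% confidence interval from -0.26 to 0.09. EED, which binds the finished mark and stimulates the enzyme, had signals of 729.1, 818.1 and 748.9 against 777.6, 764.7 and 676. SUZ12, which scaffolds the core, had 1012.4, 1050 and 1038.7 against 1025.9, 948.3 and 1010.8. The log2 fold changes of EED and SUZ12 were -0.05 and -0.06, with intervals from -0.22 to 0.12 and from -0.19 to 0.08.

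Of the histone-binding subunits, RBBP4 passed on its brightest probe set and RBBP7 did not pass. RBBP4 had 6 kept probe sets. The brightest read 1461.7, 1437 and 1627.8 in control cells and 1310.5, 1187 and 1158.7 in BAHD1 siRNA cells. All BAHD1 siRNA values lay below the controls (adjusted p = 0.0357 in the intensity-trend fit and 0.206 in the fit with one prior). The next brightest read 1398.5, 1416.2 and 1466.5 against 1253.7, 1274.1 and 1182.6, at -0.21 (adjusted p = 0.0837 in the intensity-trend fit). The other 4 ran from -0.13 to 0.37, and that at 0.37 had every BAHD1 siRNA value above every control value, so the gene has no single direction on this array. The call on the brightest probe set ended without control replicate 1, 2 or 3 (adjusted p = 0.0775, 0.0746 and 0.071, intensity-trend fit), without BAHD1 siRNA replicate 2 or 3 (0.126 and 0.135), and with no filter (0.0744). RBBP7, its close relative, read 2308.8, 2334.7 and 2217.5 against 2305.8, 2358.5 and 2450.2, a log2 fold change of 0.05 ± 0.06 (SE).

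Of the 5 accessory subunits of PRC2, PHF1 was the member that passed. AEBP2, which with JARID2 defines one form of PRC2, had signals of 326.8, 370.4 and 399.4 in control cells and 405.6, 444.5 and 501.9 in BAHD1 siRNA cells. The groups did not overlap, at 0.30 ± 0.10 (SE; adjusted p = 0.101 in the intensity-trend fit), and its other probe set was at 0.28. JARID2, a catalytically inactive relative of histone demethylases, had a value of -0.13 on its brightest probe set and -0.35 on the other (adjusted p = 0.0747 in the intensity-trend fit). That other probe set read 293, 334.5 and 280.4 against 219.3, 266.8 and 228.6, with no overlap. MTF2 and PHF19, the remaining Polycomb-like genes beside PHF1, were at -0.13 and 0.10. The 5 kept probe sets of MTF2 ran from -0.15 to 0.39 and the 3 of PHF19 from -0.35 to 0.25, and none of these 8 passed.

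In PRC1, the ubiquitin ligase gene RING1 read 289, 283.8 and 293.7 in control cells and 305.5, 299.4 and 304.5 in BAHD1 siRNA cells. The groups did not overlap although the log2 difference was only 0.07, with an interval from -0.10 to 0.24. The PCGF genes set which form of PRC1 is built, and 0 of the 5 measured passed. PCGF3 and PCGF5, of related variant complexes, were at 0.32 and 0.09 on their brightest probe sets, and PCGF1, of the BCOR-containing complex, was at 0.12. A second PCGF1 probe set read 97.7, 139.1 and 124.8 against 178, 151 and 176.2, at 0.49 with no overlap (adjusted p = 0.0597 in the intensity-trend fit). PCGF2, of canonical PRC1, read 332.4, 346.9 and 316.3 against 302.5, 299.4 and 294, with every BAHD1 siRNA value lower, at -0.15 (adjusted p = 0.304 in the intensity-trend fit). Its 4 kept probe sets ran from -0.15 to 0.21, and the groups overlapped on all but the brightest. PCGF6, of a variant complex recruited with DNA-binding factors, was at -0.10. The probe set annotated jointly to BMI1, another PCGF protein of canonical PRC1, and the COMMD3-BMI1 readthrough read 1334.8, 1262 and 1312.8 against 1391.8, 1346.5 and 1334.8, at 0.06 ± 0.06 (SE).

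The CBX genes, whose chromodomains bind methylated H3, gave 3 measured members with values of -0.02 for CBX2, -0.14 for CBX6 and -0.13 for CBX7, and none passed. CBX6 had a second probe set with signals of 207.3, 168.4 and 190.5 in control cells and 160.8, 115.8 and 138.6 in BAHD1 siRNA cells. Its groups did not overlap, at -0.45 ± 0.13 (SE; adjusted p = 0.069 in the intensity-trend fit). The dimmer CBX2 probe sets were at 0.50 and -0.04. Of the polyhomeotic genes beside PHC2, PHC1 was at 0.24 and PHC3 at -0.15. SCMH1 and SCML1, relatives of the fly gene Sex comb on midleg, were at -0.16 and 0.05. A probe set shared by PHC1 and M6PR was at -0.17, and one shared by SUZ12 and its pseudogene SUZ12P1 at -0.02.

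RYBP and YAF2, the alternatives to CBX in variant PRC1, were at 0.08 and 0.25, and neither passed. The 3 kept probe sets of RYBP ran from -0.16 to 0.08. That at -0.16 had every BAHD1 siRNA value below every control value. BCOR, which anchors the PCGF1 form of the complex, was split over its 4 probe sets. The one that passed read 295.3, 305.4 and 326.5 in control cells and 385.3, 384.1 and 411.6 in BAHD1 siRNA cells (adjusted p = 0.0318 in the intensity-trend fit and 0.167 in the fit with one prior). Another read 62.7, 75.5 and 55.5 against 41.1, 51.6 and 41.4, at -0.52 ± 0.18 (SE; adjusted p = 0.125 in the intensity-trend fit), also with no overlap but in the opposite direction. The call ended without control replicate 1 or 2 (adjusted p = 0.0971 and 0.0937, intensity-trend fit), without BAHD1 siRNA replicate 2 or 3 (0.09 and 0.123), with no filter (0.0754), and with the array medians centred, at 0.21 (0.309). BCORL1, its relative, was at 0.13, with 3 kept probe sets between 0.07 and 0.13. The MBT-domain genes, which bind methylated lysines, were at -0.10 for L3MBTL1, -0.25 for L3MBTL2 and -0.01 for L3MBTL3. L3MBTL2, a subunit of the PCGF6 form, read 320.1, 275.8 and 273.1 against 218, 271.2 and 241.9, so that every BAHD1 siRNA value was lower, and it did not pass (adjusted p = 0.187, intensity-trend fit). Its other probe set was at -0.08, with overlapping groups.

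The Polycomb deubiquitinase, which removes the PRC1 mark from H2A, was represented by its ASXL cofactors. ASXL1 read 309.8, 329.6 and 282.7 in control cells and 273, 250.6 and 239.5 in BAHD1 siRNA cells. The groups did not overlap, at -0.27 ± 0.09 (SE; adjusted p = 0.113 in the intensity-trend fit), while its other 5 kept probe sets ran from -0.13 to 0.02. ASXL2 was at -0.04, with 4 kept probe sets between -0.50 and 0.23. YY1, a zinc finger protein related to the fly recruiter of Polycomb, read 2032, 2261.5 and 2517.6 against 2117, 2174.3 and 2510.9. Its log2 difference rounded to 0.00, with an interval from -0.19 to 0.19, and its 6 kept probe sets ran from -0.28 to 0.10.

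Probe sets of the same gene often disagreed. Of 25 members with several kept probe sets, 15 had values on both sides of 0, RBBP4 and BCOR among them, and 10 had all on one side. The remaining 10 members had 1 kept probe set each, including PHF1, PHC2, EZH2 and EED. All 18 member probe sets that were left out lay below the filter, and 0 of the 95 kept were kept through arrays of one group alone.

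Related subunits were also set against each other within each array, where array scaling cancels. The brightest kept probe set stood for each gene. The size of such a difference depends on the probe sets, so its change between groups is the value of interest. That change also depends on the probe set chosen. Kept probe sets of RBBP4 ran from -0.31 to 0.37, of MTF2 from -0.15 to 0.39 and of PHF19 from -0.35 to 0.25. Those of EZH1 ran from 0.11 to 0.32, and EZH2 had 1. Pairs of other probe sets were not tested. For EZH2 minus EZH1 it was 1.33, 1.42 and 1.47 on the log2 scale in control arrays and 1.15, 1.15 and 1.08 in BAHD1 siRNA arrays, a change of -0.28. For RBBP7 minus RBBP4 it was 0.66, 0.70 and 0.45 against 0.81, 0.99 and 1.08, a change of 0.36. For PHF19 minus MTF2 it was -1.11, -1.14 and -1.20 against -0.86, -0.90 and -1.02, a change of 0.22. In these 3 pairs the groups did not overlap (exact two-sided permutation p = 0.1 each, the smallest possible, and 0.2 adjusted over 6 pairs). The pairs ASXL2 and ASXL1, BCORL1 and BCOR, and YAF2 and RYBP overlapped, with changes of 0.23, 0.07 and 0.17. No pair could pass in a design of this size.

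**Figure D4:**
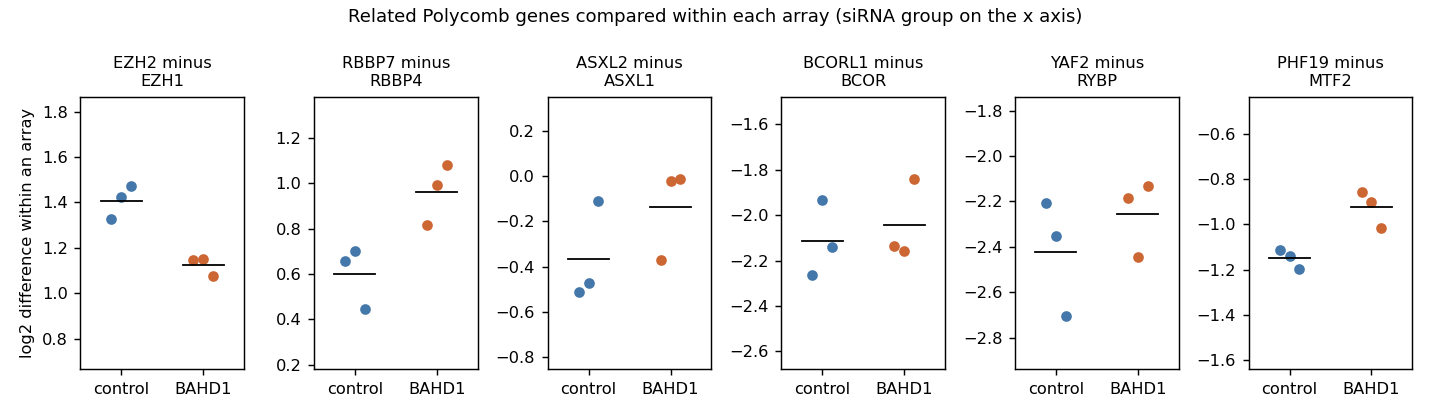
Difference in log2 signal between 2 related Polycomb genes within each array, on the brightest kept probe set of each gene. Control siRNA arrays are in blue, BAHD1 siRNA arrays in orange, and group means are bars. Each panel spans the same height on the log2 scale. EZH2 minus EZH1 is lower, and RBBP7 minus RBBP4 and PHF19 minus MTF2 are higher, in all BAHD1 siRNA arrays.

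Other genes around the complexes were taken from 3 lists. Of 36 Polycomb partner genes 33 were measured, 0 rose and 1 fell, with a median log2 fold change of 0.09. The gene that fell was SFMBT2, an MBT-domain relative, with signals of 187, 187 and 183.9 in control cells and 138, 137.3 and 137.6 in BAHD1 siRNA cells, at -0.43 ± 0.10 (SE; adjusted p = 0.0287 in the intensity-trend fit). Of 21 genes that act against Polycomb silencing, such as demethylases, trithorax methyltransferases and SWI/SNF subunits, 20 were measured, 0 rose and 1 fell, with a median of 0.02. That was ARID1A, a SWI/SNF subunit, with 633.9, 584.2 and 633.6 against 519.4, 500.9 and 475.5, at -0.31 ± 0.07 (SE; adjusted p = 0.0352 in the intensity-trend fit), whereas its other 2 kept probe sets were at -0.11 and 0.02. Each of these shares lies below the 5.52% of all genes called.

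Of 45 developmental and cell cycle genes known as Polycomb targets in other cells, 29 were measured, 14 lay below the filter, and 2 rose and 0 fell, which is 6.90% of those measured against 5.52% of all genes. NKX2-2, a neural homeobox gene, had signals of 93.6, 92.8 and 87.8 in control cells and 126.4, 123.2 and 159.1 in BAHD1 siRNA cells, at 0.56 ± 0.13 (SE; adjusted p = 0.0318 in the intensity-trend fit). GATA3, a zinc finger factor of lymphoid and epithelial development, had 164.7, 173.7 and 157.7 against 201.8, 246.6 and 223.9, at 0.43 ± 0.10 (SE; adjusted p = 0.0358 in the intensity-trend fit), and its other kept probe set was at 0.57. The groups did not overlap for either gene. The measured target genes had a median of 0.17, beside 0.02 for all genes, and 10 of the 29 had every BAHD1 siRNA value above every control value, beside 16% of all genes. The median of the target genes was 0.03 with the array medians centred, which moved all genes to -0.11, and 0.13 after cyclic loess. Without control replicate 1 or 2, without BAHD1 siRNA replicate 2 or 3, or with no filter, 0 genes of these 3 lists passed. The cell cycle inhibitor gene CDKN2A, a classic Polycomb target named here after its values were seen, read 2119.3, 2000.7 and 1880.9 against 1913.8, 1548.9 and 1340.8, with overlapping groups at -0.33 ± 0.11 (SE; adjusted p = 0.0945 in the intensity-trend fit).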

How the data were processed

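The deposited values were linear intensities, 1 for each probe set on each array, with a mean of 100 per array after the highest and lowest 2% were trimmed. GCOS and GCRMA appear in the submitters' processing notes, with no role or version. Detection calls were not used here. Intensities were taken as log2(value + 1). Control probe sets (62 of 54675) were left out. A probe set was kept above a signal of 17.9, the median of all values, in at least 3 of 6 arrays. All 27458 kept were fitted in R 4.3.3 with limma 3.58.1 (lmFit, eBayes with trend and robust), and with one prior beside it. Genes were named from single-gene annotation, and the brightest kept probe set stood for a gene. The members, lists and the choice of fit were made with earlier results of these data known. Every member is named, and genes of the 3 other lists where they passed. CDKN2A, which did not pass, was named as well after its values were seen. Methods were tested on simulated data with independent normal noise whose spread followed the mean signal. The intensity-trend fit assumes such a spread, so these data cannot decide between it and the fit with one prior. The alternatives were one prior, a replicate block, no filter, a stricter filter, quantile, cyclic loess and median scaling, array weights, log2(value + 16), averaged probe sets, a threshold of 0.10, and each array left out. The number of arrays limits the precision. P-values of the fits rest on the spread between the replicates, called biological in the labels, and on the prior variance. Exact permutation p-values use no prior.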

Additional observations from a re-analysis of the deposited data

Results flagged for a closer look

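The poly-A spike-in RNAs, which no comparison used, differed between the groups. Across their 24 probe sets the median log2 difference was 0.58, and all 24 were higher in BAHD1 siRNA arrays. The mean of their log2 signals came to 8.63 ± 0.12 (SD, n = 3) with the control siRNA. With the BAHD1 siRNA it came to 9.21 ± 0.17 (SD, n = 3), without overlap (exact permutation test, two-sided, p = 0.1, the lowest this design allows). For the 18 hybridisation controls the corresponding median was -0.12, with overlapping groups. The part of this difference in the Polycomb results was not tested.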

How the results depend on the processing

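PHF1 kept its call under 14 of the 15 alternatives run on it, the exception being one prior variance (adjusted p = 0.132). The count of all probe sets called was 0 with one prior, 398 with no filter, 2365 at a threshold of 0.10, and 197 to 1176 with one array left out. It was 293 and 273 without control replicates 1 and 2, and 197 and 211 without BAHD1 siRNA replicates 2 and 3. Members called went from 3 to 0 with one prior, to 1 with no filter, and to between 1 and 3 with one array left out. With centred array medians 1 member rose and 2 fell, ASXL1 now among them at -0.41 (adjusted p = 0.0447, intensity-trend fit). With averaged probe sets 2 rose and 0 fell, so the fall of RBBP4 was not called. Member probe sets called went from 4 to 0 with one prior, 1 with no filter, 9 with the stricter filter, 7 with centred array medians, 9 at a threshold of 0.10, and 1 to 5 with one array left out. The stricter filter tests fewer probe sets; other causes were not tested. The members' median was -0.15 with centred medians and -0.073 to 0.026 with one array left out, lowest without control replicate 1.

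Whether the replicate numbers pair the arrays is not known. Deviations of same-numbered arrays from their group means correlated at 0.01, 0.01 and 0.02, and those of other pairs at -0.028 to 0.017. Not every array correlated best with its own number. With 3 arrays in each group this check is too weak to decide. With the replicate block, 1629 probe sets, 4 members and 7 member probe sets were called.

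Over all 95 kept member probe sets, 24 changed sign with centred array medians. On the brightest probe sets, to which the values below belong, members that did not pass changed sign in 30 fits, none past the threshold. With centred medians, RBBP7 was at -0.085, RYBP -0.059, PCGF1 -0.021, SCML1 -0.093, BCORL1 -0.011, BCOR -0.079, PCGF5 -0.0497, PHF19 -0.0396 and RING1 -0.068. YY1 was at 0.034 after quantile normalization, 0.054 after cyclic loess and 0.0022 with array weights. With one array left out, YY1 ran from -0.078 to 0.077, EED from -0.088 to 0.013, PCGF1 from -0.031 to 0.22, CBX7 from -0.24 to 0.026, ASXL2 from -0.11 to 0.026, SCML1 from -0.014 to 0.079, BCOR from -0.016 to 0.13, CBX2 from -0.075 to 0.058, PHF19 from -0.0025 to 0.19, L3MBTL3 from -0.13 to 0.061.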
